A study of Mus musculus with 2 samples.

Results

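Late round spermatids were taken from droplet profiles of the RNA in dispersed mouse testis, as haploid germ cells in which a set of late spermatid genes had begun to appear. Members were chosen by their counts of these genes. A barcode, the tag that marks 1 droplet, was a member when it held 8000 or more UMIs (unique molecular identifiers, each counting 1 captured RNA molecule) and at most 10% mitochondrial UMIs. It also needed 3 or more UMIs of the acrosomal protein gene Acrv1, more than of the spermatocyte genes Ccna1 and Piwil1. Last, the summed share of Smcp, Tppp2, Lelp1 and Spem2 in its UMIs, here called the late share, had to be from 0.25 to below 1 times that of all barcodes together, which was 0.402%. This gave 1930 members of 38009 barcodes, 1065 of 17408 in the control library and 865 of 20601 in the knockout library.

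The control library came from Dot1L fl/+ testis without Cre. The knockout (cKO) library came from Dot1L fl/delta testis carrying Ddx4-Cre, which is active in germ cells, so that somatic cells carry 1 floxed and 1 deleted allele. The labels give neither age nor the number of animals. With 1 library per genotype there is no replicate: no test was made, intervals are 95% and cover counting error only, and genotype, animals and library cannot be told apart.

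DOT1L is the methyltransferase that places methyl groups on lysine 79 of histone H3. In the testis, round spermatids build the acrosome and the first parts of the tail while still transcribing. Later, as the nucleus elongates, transition proteins and then protamines replace most histones, and transcription stops. Many of the messages for that step are made early, bound by protein and translated only days later. The study's title concerns this replacement, and late round spermatids are the stage just before it.

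Promoters of genes that set late round spermatids apart from earlier ones are shown first. The same 8 letters lie in 10.8% of those with a promoter entry, against 3.89% of all measured genes. Among the genes at least 2-fold higher than in early round spermatids in both libraries (below), 12 were named by a fixed rule, and all 12 had a RefSeq promoter entry. In 4 of the 12 the 250 bases before the start held TGATGTCA or its reverse complement TGACATCA, a variant of the cAMP response element TGACGTCA that CREM and related factors bind. Those 4 and Tnp1, the transition protein 1 gene, follow, 5′ to 3′ along the gene, from the GRCm38.p6 (mm10) RefSeq table. Capitals mark the 8 letters in either orientation.
Asb17: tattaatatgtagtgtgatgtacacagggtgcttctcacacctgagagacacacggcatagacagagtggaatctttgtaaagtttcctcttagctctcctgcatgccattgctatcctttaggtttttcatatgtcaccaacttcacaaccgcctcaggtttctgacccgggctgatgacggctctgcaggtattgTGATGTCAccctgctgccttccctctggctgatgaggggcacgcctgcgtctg
Banf2: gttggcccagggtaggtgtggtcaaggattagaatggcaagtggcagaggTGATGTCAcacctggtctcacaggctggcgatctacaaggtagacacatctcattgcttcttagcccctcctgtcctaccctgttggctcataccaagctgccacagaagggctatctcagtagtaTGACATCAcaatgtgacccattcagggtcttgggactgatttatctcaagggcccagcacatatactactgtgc
Saxo1os: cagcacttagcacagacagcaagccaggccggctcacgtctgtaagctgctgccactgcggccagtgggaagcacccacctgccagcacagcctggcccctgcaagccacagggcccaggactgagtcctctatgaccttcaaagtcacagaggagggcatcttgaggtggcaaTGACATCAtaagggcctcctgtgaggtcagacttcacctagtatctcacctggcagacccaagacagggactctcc
Trim80: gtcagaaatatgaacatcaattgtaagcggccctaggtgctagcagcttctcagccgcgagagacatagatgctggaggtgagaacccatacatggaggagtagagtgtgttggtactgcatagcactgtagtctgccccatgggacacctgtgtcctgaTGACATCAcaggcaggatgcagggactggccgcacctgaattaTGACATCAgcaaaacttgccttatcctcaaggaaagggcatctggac
Tnp1: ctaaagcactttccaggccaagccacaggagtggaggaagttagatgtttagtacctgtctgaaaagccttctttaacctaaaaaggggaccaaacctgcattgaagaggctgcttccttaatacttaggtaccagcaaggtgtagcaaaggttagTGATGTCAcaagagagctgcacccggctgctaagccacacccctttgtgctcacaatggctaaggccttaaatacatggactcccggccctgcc
The windows lie at chr3:153843997-153844246 on the plus strand for Asb17, at chr2:144032852-144033101 on the plus strand for Banf2, at chr4:86558194-86558443 on the plus strand for Saxo1os, at chr11:115440295-115440544 on the plus strand for Trim80 and at chr1:73015900-73016149 on the minus strand for Tnp1. Banf2 and Trim80 each hold 2 matches. The match starts 53 bases before the gene start in Asb17 and 94 bases before it in Tnp1. The others of the 12 do not have these letters in this window, but Ccin and Sox5os3 among them hold the palindrome TGACGTCA there.

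Promoter entries were found for 1246 of 1786 genes, each with a symbol used once, that were 2-fold higher in late round spermatids. Across all genes with an entry, the 8 letters were found in 134 of those 1246 (10.8%). They were found in 24 of 1077 genes (2.23%) that were 2-fold lower, in 382 of 9830 genes (3.89%) measured in both stages, and in 3.41% of all 27025 genes in the table. Seen from the other side, 35.1% of measured genes with the letters were 2-fold higher in late round spermatids, against 11.8% of those without. Matches lay within 100 bases of the start for 84.9% of the 132 matches in the higher genes and for 75.9% of the 349 in all measured genes, 1 start per gene. The palindrome TGACGTCA showed the opposite order, at 1.85% of higher, 4.09% of lower and 3.01% of measured genes. Its core TGACG, which overlaps it, was found in 19.5%, 30.5% and 28.6%, TATAAA in 12.8%, 7.15% and 9.06%, and the RFX-type core GTTGCC in 15.2%, 15.7% and 14.2%. The full RFX palindrome was in 0 of the higher genes and in 5 measured genes. These 6 motifs were searched on both strands after the stage counts were known, and TGATGTCA was put first because the ratio of its shares in higher and lower genes was largest, so the shares are a description. A further search, with an ambiguous letter, was void. Among the higher genes, the median log2 ratio of cKO to control was -0.01 with the letters and 0.11 without.

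Acrv1 is part of the rule, so its detection checks nothing. It was found in 99.2% of control and 98.3% of cKO members after each was thinned to 8000 UMIs, with a median of 5 and 4 UMIs. In somatic barcodes, which should lack it, 13.8% and 15.0% had an Acrv1 UMI at median depths of 2332 and 2860 UMIs (unthinned; in members, at 20797 and 20453, the unthinned share was 100% in both). The label was set beside markers, some of which the rule itself uses. Summed over 10 round spermatid markers, Acrv1 among them, the level was 4931 CPM in control and 4814 CPM in cKO members, where CPM is a gene's UMIs scaled to 1000000 UMIs of the summed members. Spermatogonial markers stood at 32.3 and 45.9 CPM, and early spermatocyte markers at 194 and 209 CPM. Pachytene to secondary spermatocyte markers stood at 11570 and 11060 CPM. They include the long-lasting messages Ldhc and Tbpl1, and Piwil1 and Ccna1 of the rule. All 10 round spermatid markers were present in both libraries. Elongating spermatid markers summed higher than these in members, at 10830 CPM in control and 10650 CPM in cKO. Barcodes that met the Acrv1 conditions with a late share past the upper bound held 101700 and 75090 CPM of the elongating markers. These markers include Smcp, Tppp2, Lelp1 and Spem2, which define the late share, so their sums were in part set by the rule. Their round spermatid markers stood at 3988 and 4135 CPM. The round spermatid sum alone therefore did not set members clearly apart from this next stage.

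Somatic RNA was low in most members and uneven between libraries. All 12 Sertoli cell markers summed to 96.9 CPM in control and 148 CPM in cKO, 12 macrophage markers to 25.8 and 28.4 CPM, and 10 Leydig cell markers, none at 0 in either library, to 9.97 and 136 CPM. The median member had 0 Leydig marker UMIs in both. Barcodes with strong Leydig, macrophage or mesenchymal markers (109 control, 387 cKO), called somatic barcodes here, serve to gauge RNA free in the suspension. The 2 libraries share 102 barcode sequences, among them 10 control and 5 cKO members and 1 that is a member in both.

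Members made up 19.5% (18.5% to 20.6%) of the 5448 control barcodes with 8000 or more UMIs and at most 10% mitochondrial UMIs, and 17.3% (16.2% to 18.3%) of 5011 in the cKO, exact binomial intervals. Of barcodes that met the Acrv1 conditions, members were 1065 of 2010 (50.8% to 55.2%) and 865 of 1565 (52.8% to 57.8%). The 8000 UMI minimum left out 11897 control and 15416 cKO barcodes. The early round spermatids used for comparison, with a late share below 0.25, numbered 440 and 357, and barcodes with a late share of 1 or more numbered 505 and 343. The histogram of the late share had no gap at either bound. Between 0.20 and 0.25 lay 109 control and 97 cKO barcodes and between 0.25 and 0.30 lay 132 and 115, with the 4 late genes at 909 and 909 CPM just outside and at 1112 and 1104 CPM just inside. At the upper bound the 4 genes stood at 3784 and 3805 CPM just inside (81 and 73 barcodes) and at 4219 and 4215 CPM just outside (75 and 52). The class is therefore a range along a continuous course.

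**Figure D1:**
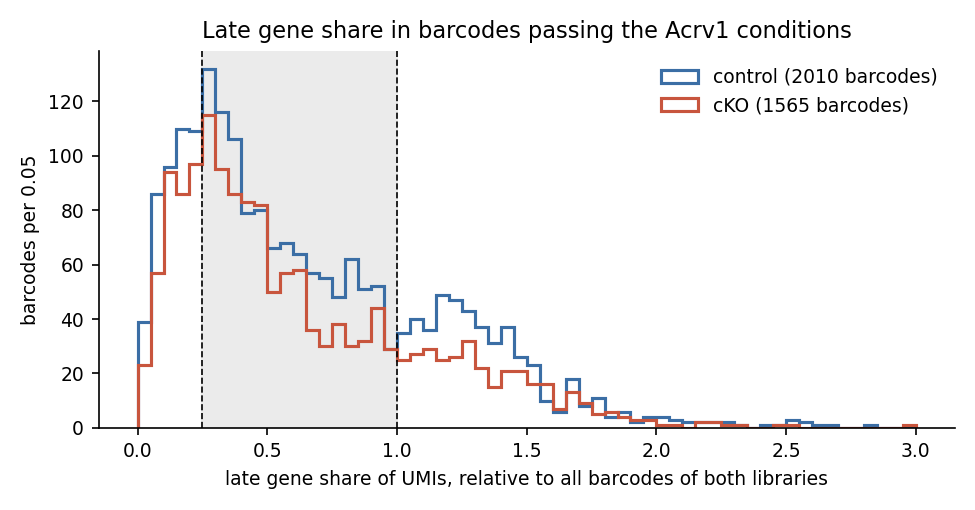
Number of barcodes (y axis, per 0.05 of late share) by late share relative to all barcodes of both libraries (x axis), for the 2010 control and 1565 cKO barcodes that met the Acrv1 conditions. The grey band from 0.25 to 1 holds the 1065 and 865 members, and neither dashed bound falls in a gap.

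Members held 25668607 UMIs in control and 20661241 in cKO, with medians of 20797 and 20453 per member. At an equal depth of 8000 UMIs the median member had 3038 genes in control and 3169 in cKO. Early round spermatids had 3087 and 3240 genes at that depth, and barcodes with a late share of 1 or more had 2740 and 2877. The median mitochondrial share of UMIs was 1.30%, 0.28% and 0.12% in control (early, late, late share 1 or more) and 1.11%, 0.34% and 0.18% in cKO.

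Compared with early round spermatids, late round spermatids held more RNA for the chromatin proteins, the acrosome and the sperm tail's outer structures, and less for part of the axoneme. Of 13203 genes measured (50 or more UMIs over both stages in each library), 1789 (13.5%) were 2-fold or more higher and 1365 (10.3%) were 2-fold or more lower in both libraries. In control alone 17.4% were higher and 17.2% lower, and in cKO alone 14.7% and 12.7%. The median gene stood at a log2 ratio of -0.29 in control and -0.26 in cKO. With that median set to 0 in each library, 2244 genes were higher and 639 lower. The late share chose the stages, so these values describe the stages and test nothing.

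All 7 transition protein, protamine and spermatid linker histone genes were 2-fold higher in summed counts, with a median log2 ratio of 1.83 in control and 2.13 in cKO. The median barcode changed less for 3 of them. From early to late, Prm1 went from 24 to 28 UMIs in control and from 12 to 14 in cKO. Prm2 went from 18 to 21 and from 10 to 13, and Tnp2 from 10 to 14 and from 8 to 10. The Hils1 median went from 9 to 33 and from 11 to 32. H1fnt, a spermatid linker histone gene, stood at 30.5 CPM in early and 362 CPM in late control cells, and at 43.6 and 421 CPM in cKO. Prm3, a gene of the protamine cluster, was higher by 2.52 and 2.13 on the log2 scale, and Hils1, the other spermatid linker histone, by 1.83 and 1.40. H2al2a, a histone variant that works with transition proteins, was higher by 2.38 and 2.55. Variants also used in somatic cells went both ways: H3f3b was higher by 1.18 and 1.04, while H2afx stood at -1.37 and -0.96, H2afz at -0.84 and -0.67 and H2afv at -0.84 and -0.31. Among histone removal genes 2 of 22 were higher and 2 lower, near the 13.5% and 10.3% of all genes. Cdyl, a chromodomain protein of histone crotonylation, was higher by 3.32 and 2.60, and Chd5, a remodeller of the exchange, by 1.64 and 1.38.

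For the acrosome, 14 of 35 measured genes were 2-fold higher and none lower, beside 13.5% and 10.3% of all genes. Ccin, which encodes calicin of the sperm head skeleton, moved most, from 5.53 to 79.2 CPM in control and from 7.20 to 94.1 CPM in cKO. Spaca4, Eqtn and Capza3, acrosomal membrane and actin-capping genes, were higher by 1.92, 1.84 and 1.79 in control and by 1.47, 1.33 and 1.54 in cKO. Izumo1, which the sperm needs to fuse with the egg, was higher by 1.35 and 1.32. Not all genes of the list shared this. Spink2, a protease inhibitor, stood at -0.22 and -0.16, beside a median of all genes of -0.29 and -0.26. Dpy19l2, which anchors the acrosome to the nucleus, stood at -1.02 and -0.86.

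Tail genes differed by structure, read beside 13.5% of all genes higher and 10.3% lower. Of 25 genes of the outer dense fibres, fibrous sheath and mitochondrial sheath, 13 were 2-fold higher and none lower, with medians of 1.34 and 1.22. Txndc2 and Odf3 were higher by 3.12 and 2.96 in control and by 2.62 and 2.48 in cKO, and Akap4, the scaffold of the fibrous sheath, by 1.45 and 1.89. Of 34 genes of the axoneme, the microtubule core, 9 were lower and 1, Tekt5, was higher. Dnaic2, an outer dynein arm chain, stood at 54.5 CPM in early and 11.2 CPM in late control cells and at 43.7 and 9.83 CPM in cKO, and Hydin, of the central pair, stood at -1.10 and -1.08. Meiotic genes had medians of -0.67 and -0.63, with 4 of 29 lower, beside 10.3% of all genes. Aurka stood at -2.09 and -1.75, and Syce2, of the synaptonemal complex, was higher at 1.82 and 1.76. On the X chromosome 89 of 336 measured genes (26.5%) were 2-fold higher, against 13.5% of all genes. Cypt1 and Cypt3, cysteine-rich perinuclear theca genes on the X, were higher by 1.94 and 1.90 in control.

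**Figure D2:**
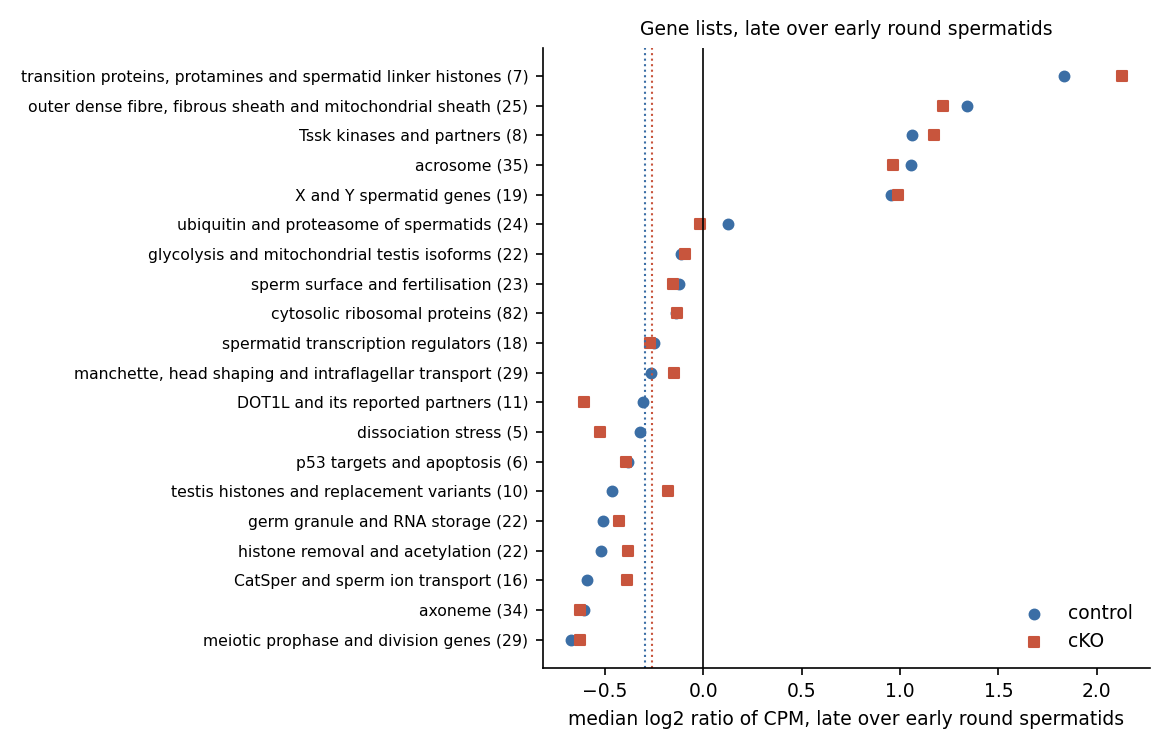
Median log2 ratio of CPM, late over early round spermatids (x axis), for 20 gene lists (y axis, measured genes in brackets), control as circles and cKO as squares, with dotted lines at the median of all measured genes. Chromatin proteins and the outer tail structures lie highest, at 1.83 and 1.34 in control, and axoneme and meiotic genes lowest, at -0.61 and -0.67.

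Of the 12 genes with the highest ratios in both libraries, Asb17, an ankyrin repeat gene of the SOCS box family, stood at 10.7 CPM in early and 174 CPM in late control cells, and at 13.6 and 185 CPM in cKO. Banf2, a relative of the chromatin-bridging factor Banf1, went from 10.5 to 199 CPM and from 12.2 to 157 CPM. Both kept increasing where the late share was 1 or more, to 647 and 872 CPM in control. Somatic barcodes held a mean of 0.36 Asb17 UMIs in control and 0.50 in cKO, against 4.18 and 4.42 in members. The others were Slfn5os, Cct8l1, Ccin, Sox5os3, Saxo1os, Tmem144, Adig, Klrb1, Trim80 and Scgn, with control log2 ratios of 3.57 to 4.18. The 3 names ending in os are transcripts from the strand opposite another gene, and whether counting used the strand is not given in the sources used here. Among the 12 genes with the lowest ratios, Fgf14 went from 736 to 122 CPM in control and from 426 to 72.5 CPM in cKO. The rest include Rrm1, a subunit of ribonucleotide reductase, at -2.33 and -2.12, and Pabpc6, a testis poly(A)-binding protein, at -2.46 and -2.10.

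Change went on within the members. They were cut into 3 ranges of late share, 0.25 to 0.5 (513 control and 461 cKO members), 0.5 to 0.75 (310 and 231) and 0.75 to 1 (242 and 173). Of 10971 genes measured, 1207 (11%) were 2-fold higher in the top range than in the bottom range in both libraries and 1450 (13.2%) were lower. Atp6v1fnb stood at 3.06, 13.2 and 64.9 CPM in control and at 2.94, 10.7 and 69.3 CPM in cKO along the 3 ranges. Cd59a, a complement regulator, stood at 4.50, 21.2 and 88.2 CPM in control and at 6.85, 23.1 and 104 CPM in cKO. Il16, Dennd6b, Dyrk4, Tuba8, Fbxo39 and Adig followed, with log2 ratios of 3.80 to 4.13 in control. In the other direction Ssxb1, of the X-linked SSX family, stood at 47.4, 9.92 and 4.98 CPM in control and at 47.6, 12.8 and 5.15 CPM in cKO. Foxp2, a forkhead transcription factor gene, stood at -2.53 in cKO. Ssxb1 and Ssxb2 share 38.7% and 68.9% of the 31-base words at their 3′ ends with other genes, so their counts are uncertain.

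**Figure D3:**
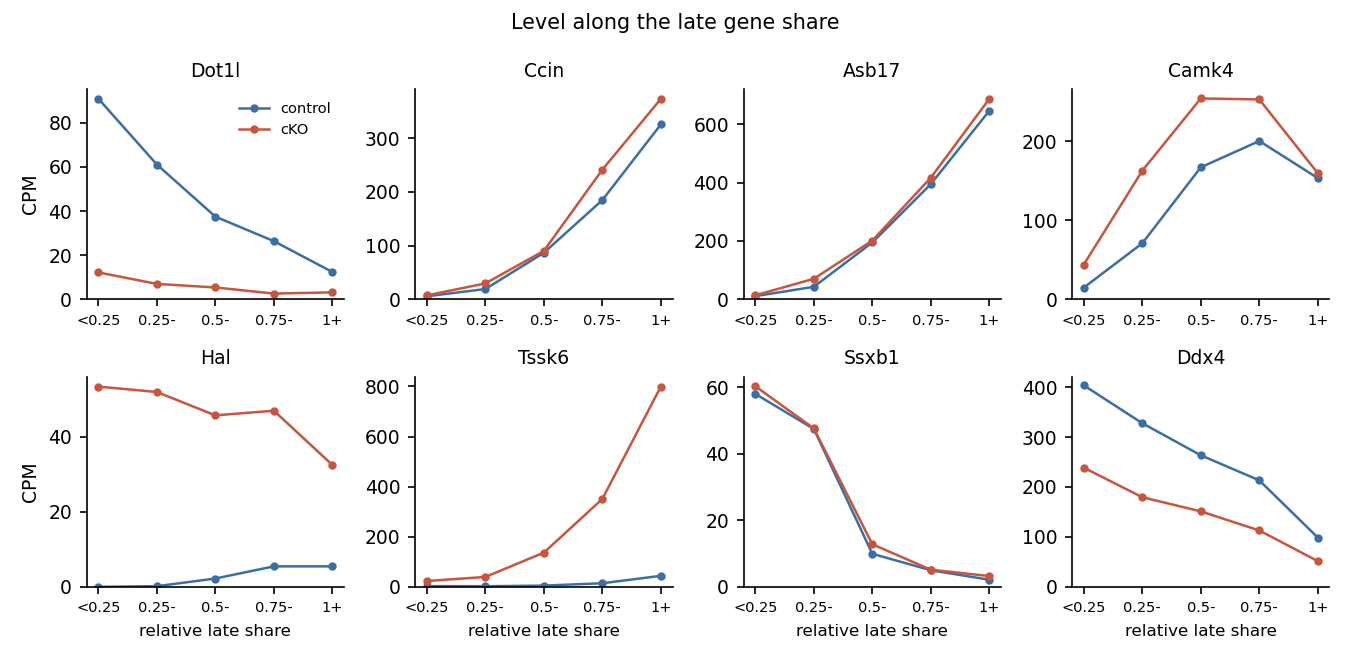
Level in CPM (y axes, starting at 0) of 8 genes in barcodes meeting the Acrv1 conditions, by late share (x axis: below 0.25, 3 ranges of members, 1 or more), control in blue and cKO in red. Ccin reaches 325 and 373 CPM and Ssxb1 drops to under 6 CPM in the top range of members and beyond, while Dot1l, Hal, Tssk6 and Ddx4 differ between libraries at every range.

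Between genotypes, the targeted gene comes first. Dot1l had 1171 UMIs (45.6 CPM) in control and 114 UMIs (5.52 CPM) in cKO members, a log2 ratio of -3.05 (-3.34 to -2.77). At 8000 UMIs, 28.5% (25.8% to 31.3%) of control members had a Dot1l UMI and 3.70% (2.54% to 5.18%) of cKO members. The ratio was -2.90 in early round spermatids and -0.91 in somatic barcodes, on 13 and 29 UMIs. The labels do not say which exon is deleted, and the kit counts 3′ ends. In control, Dot1l itself went down through the course, from 90.9 CPM in early to 45.6 CPM in late round spermatids and 12.4 CPM at a late share of 1 or more. Ddx4, the germ cell helicase gene whose promoter drives the Cre, stood at 281 and 157 CPM, a log2 ratio of -0.84, and at -0.76 in early round spermatids.

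Over all 14738 genes measured in members, 2962 (20.1%) were 1.5-fold or more higher and 936 (6.35%) were 1.5-fold or more lower in cKO, with a median log2 ratio of 0.11. Median-of-ratios scaling, which sets that median to 0, gave 2373 higher and 1306 lower. In early round spermatids 17.2% of 12216 genes were higher and 6.21% lower. Of 2027 genes called higher in members among those measured in both stages, 1278 (of 2070 so called in early cells) were also higher in early cells, and of 654 called lower, 359 (of 730). Only 12 and 5 genes were called in opposite directions. Both stages come from the same 2 libraries.

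The transition protein and protamine messages, which the study's title concerns, did not differ much when members were summed. Tnp1 stood at 1372 CPM in control and 1228 CPM in cKO (log2 ratio -0.16), Tnp2 at 1430 and 1605 (0.17), Prm1 at 2614 and 2192 (-0.25) and Prm2 at 2250 and 2626 (0.22). H1fnt was at 0.22, Hils1 at -0.05 and Prm3 at -0.52. None of the 7 reached 1.5-fold. Their median of -0.05 moved to -0.64 with the late share taken against each library alone and to 0.29 with free RNA subtracted. Together Tnp1, Tnp2, Prm1 and Prm2 made up 76.7 per 10000 UMIs in control and 76.5 in cKO.

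The median member differed more than the sum. The median control member had 83 UMIs of the 4 genes, or 40.2 per 10000, and the median cKO member had 51, or 25.7 per 10000. In control, 69 members (6.48%) held 50% of these UMIs, and in cKO 32 members (3.70%) did. Members over 300 per 10000 made up 3.94% of control and 5.09% of cKO. By range of late share the medians were 66, 87 and 151 UMIs in control and 42, 60 and 124 UMIs in cKO. For free RNA, somatic barcodes had a median of 51 UMIs of the 4 genes in control and 29 in cKO, and early round spermatids 60 and 36. The part of free RNA in the difference between libraries was not tested. For messages with a median of at most 1 UMI in somatic barcodes, the median member had 33 UMIs of Hils1 in control and 32 in cKO, 19 and 12 UMIs of Prm3, and 4 and 6 UMIs of H1fnt.

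**Figure D4:**
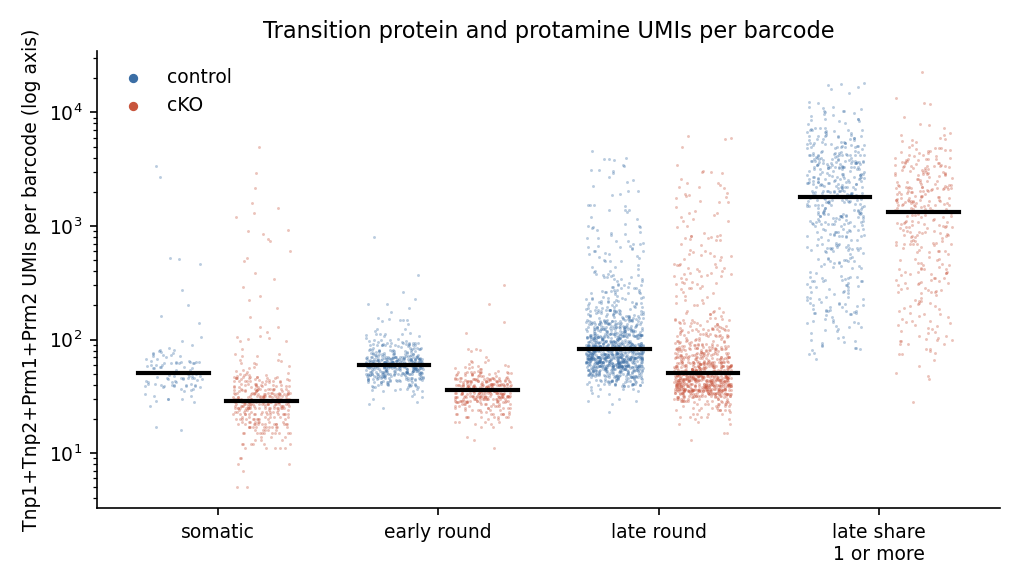
UMIs of Tnp1, Tnp2, Prm1 and Prm2 summed per barcode (y axis, log scale) in somatic barcodes, early round spermatids, late round spermatids and barcodes with a late share of 1 or more (x axis), control in blue, cKO in red, black bars at medians. In late round spermatids the medians are 83 and 51 UMIs, with a thin upper tail of members above 1000 in both libraries.

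The structural genes of the sperm were read beside the median of all genes, 0.11. Counts past 1.5-fold were read beside 20.1% of all genes higher and 6.35% lower. These shares depend on depth. With a minimum of 200 UMIs, 1472 of 10422 genes were higher and 531 lower, a smaller share in each direction. The acrosome list stood at a median log2 ratio of 0.01 (-0.12 to 0.13) with 2 of 35 genes 1.5-fold higher and none lower. The outer tail list stood at -0.09 (-0.16 to 0.03), with none of 25 past 1.5-fold. Its interval and that of the axoneme list lie below 0.11, but this was not particular to the tail. Intervals of meiotic genes (-0.16 to 0.04), ribosomal proteins (-0.08 to 0.01) and head shaping and intraflagellar transport genes (-0.18 to 0.10) did too. The median of all genes itself was 0.06 with a minimum of 200 UMIs and 0.17 with a minimum of 10. The axoneme list stood at -0.16 (-0.22 to -0.09) with none of 34 past 1.5-fold, and at -0.20 in early round spermatids but 0.84 in somatic barcodes. It moved to -0.0013 with the late share taken against each library alone. Dydc1 and Dnah1, the latter an inner dynein arm chain, were its lowest, at -0.52 and -0.50. Histone removal genes stood at 0.13 (0.03 to 0.28), with 3 of 22 higher and 1 lower, beside 20.1% and 6.35% of all genes. X and Y spermatid genes stood at -0.17 (-0.38 to 0.29), with 2 of 19 higher and 3 lower, beside the same shares. Zfy1, a Y-linked zinc finger gene, had 284 and 74 UMIs, a ratio of -1.63, and Cypt2 142 and 83.0 CPM, a ratio of -0.78.

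Single members of these lists stood out. Zpbp, a zona pellucida binding protein of the acrosome, was at 155 CPM in control and 367 CPM in cKO (1.24), and at 1.30 in early round spermatids. Camk4, a calcium/calmodulin-dependent kinase, was at 131 and 209 CPM (0.67), after 1.57 in early cells. Ube2j1, a ubiquitin-conjugating enzyme, was at 112 and 243 CPM (1.12), and Gmcl1, a germ cell ubiquitin-ligase adaptor, at 18.2 and 37.4 CPM (1.04). Hist1h1t, the testis linker histone gene, was lower, with 421 and 162 UMIs (-1.06). Crem, the transcription factor named above, was at 644 and 570 CPM (-0.18).

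The p53 target and dissociation stress lists rested on few UMIs, and their medians moved with the processing. Of 8 measured p53 target and apoptosis genes, 5 were 1.5-fold higher, against 20.1% of all genes, and none lower, with a median of 0.77 (-0.25 to 1.51). That median was 0.14 with a minimum of 200 UMIs, 0.06 with members thinned, 0.07 at a late share of 0.35 to 0.75 and 0.12 with free RNA subtracted. Bax had 24 and 55 UMIs and Cdkn1a 40 and 59. Of 6 measured dissociation stress genes 4 were higher, beside the same 20.1%, with a median of 0.76 (-0.12 to 1.79), and of 1.23 in early round spermatids and 0.43 in somatic barcodes. It was 0.01 with free RNA subtracted, 0.40 with a minimum of 200 UMIs, 0.38 with the late share taken against each library alone and 1.44 with a minimum of 10 UMIs. Egr1 had 18 and 50 UMIs.

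**Figure D5:**
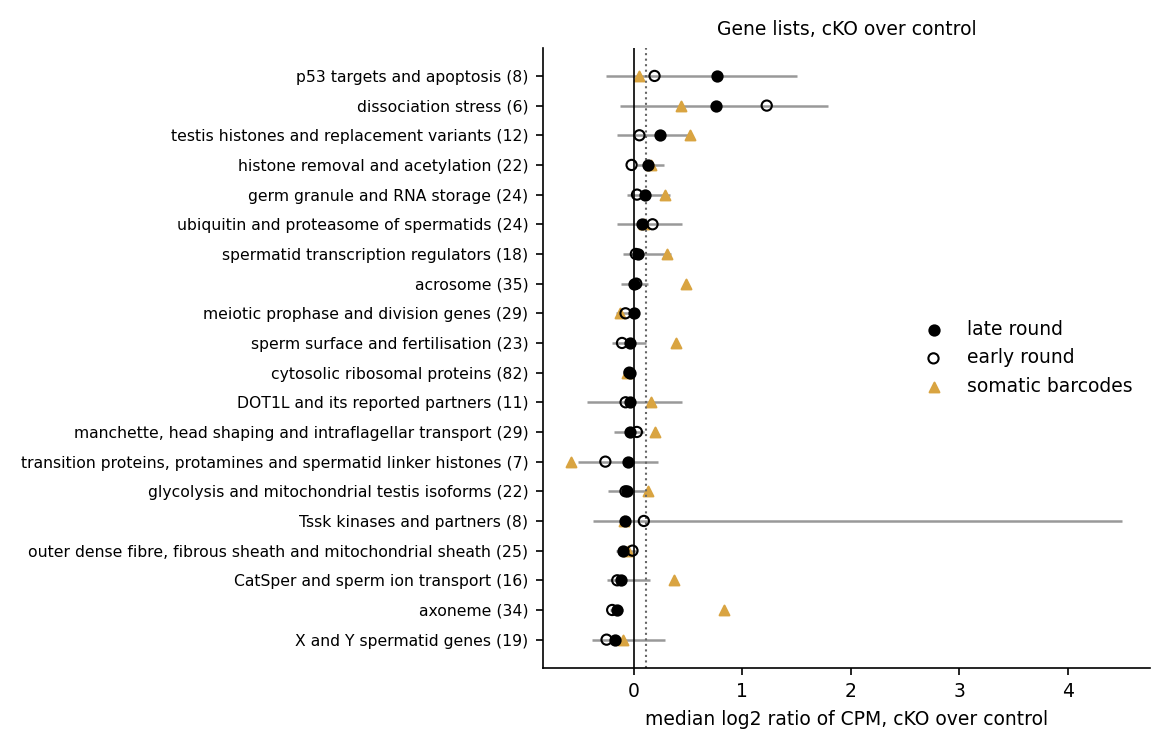
Median log2 ratio of CPM, cKO over control (x axis), for 20 gene lists (y axis, measured genes in brackets) in late round spermatids (filled circles, grey 95% intervals of the median), early round spermatids (open circles) and somatic barcodes (triangles), with a dotted line at 0.11, the median of all genes. Most late medians lie near 0, with p53 targets at 0.77 and dissociation stress at 0.76 highest, on 8 and 6 genes, and the Tssk interval reaching 4.50.

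Of the 12 highest genes, named by size alone, those given here fall into 2 kinds. Scand1, Hal, Rabgef1, Tssk6, Rala, Pgp and Tusc2 stayed at 3.26 to 5.52 without members that had 10 or more somatic marker UMIs (2 control, 11 cKO). Pgp, phosphoglycolate phosphatase, stood at 212 CPM in control and 2170 CPM in cKO, a log2 ratio of 3.36, with a median of 5 and 45 UMIs per member. Scand1, a SCAN domain gene, stood at 9.35 and 429 CPM (5.52), with a median of 0 and 8 UMIs. Hal, histidine ammonia-lyase, had 53 and 1015 UMIs (4.57), with a UMI in 3.76% and 63.1% of members. Tssk6, a testis kinase needed for sperm function, stood at 6.04 and 137 CPM (4.50). These genes were also higher in early round spermatids, by 2.82 to at least 7.60, the last for Hal. In somatic barcodes Pgp was at 3.23, Scand1 at 5.93 and Tssk6 at 4.02, and Hal had 0 and 28 UMIs. Somatic barcodes also carry free spermatid RNA, so these ratios there cannot be told apart from it.

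A second group, Lcn2, Fabp3, Ptgds and Gstm1, sat in few members. Lcn2, lipocalin 2, had 22 UMIs in control and 2469 in cKO (7.12), and 98.4% of the cKO UMIs were in 10 members with 10 or more Leydig marker UMIs. Control had 1 such member. The same 10 held 93.1% of Fabp3, 91.9% of Ptgds and 87.7% of Gstm1 UMIs. Without members that had that many somatic marker UMIs, Fabp3 stood at 0.17, Ptgds at 0.29, Gstm1 at 0.42 and Lcn2 at 3.06 on 6 and 39 UMIs.

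Of the 12 lowest genes, Phb, Dot1l, Zfp607a, Sav1 and Rabgap1l share under 3% of the words at their 3′ ends with other genes. Phb, prohibitin of the mitochondrial inner membrane, stood at 127 and 7.65 CPM, a ratio of -4.06 (-4.29 to -3.82), and at -3.36 in early cells. Sav1, a scaffold of the Hippo pathway, stood at 48.7 and 17.7 CPM (-1.46). The others share 52.7% to 100% of those words, and their counts are uncertain. They include Hist2h2aa1, Dynlt1b, Hist2h2ac, Rsph3a, Kpna2 and Rpl35. All 12 were also lower in early round spermatids, with a median of -2.07, and the 4 that were measured in somatic barcodes were lower there too.

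The distance between libraries changed between early and late round spermatids for few genes. Of 12087 genes measured in both stages, 1.62% had a log2 ratio of cKO to control higher by 1 or more in late cells and 1.36% lower by 1 or more. Among the genes 2-fold higher in late than in early cells, the median ratio was 0.36 in early and 0.09 in late cells. For all 13203 genes compared between stages it was 0.09 and 0.10. Along the 3 ranges of late share the higher genes stood at 0.30, 0.0037 and 0.09, which is not a steady course. Their early counts also chose these genes, so a change with stage was not tested. The ratio for Tssk6 was higher in late cells by 1.53, and that for Hal was lower by at least 3.02, with control's 0 UMIs in early cells set to the floor of 3. Dsg1a, a desmosomal cadherin, stood at 7.83 and 46.8 CPM in control (early, late) and at 20.7 and 39.4 CPM in cKO, a change of -1.65. Fat3 and Epha6, a cadherin and an ephrin receptor, changed by -1.15 and -1.20. Akr1cl, Lcn2, Fabp3, Ptgds and Cyp17a1 had the largest positive changes, and the 10 members named above held 98.2% of the Akr1cl and 97.4% of the Cyp17a1 UMIs in cKO.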

How the data were processed

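Libraries were made from whole dissociated testis with a droplet 3′ kit, per the labels' protocols. The deposited UMI counts per gene and barcode come from Cell Ranger 7.0.0, as the file headers state, and the submitters' processing notes name build mm10 and Seurat 4.1.0. Whether introns were counted is not given in the sources used here. Of 32285 genes, 32158 were found in GENCODE vM21 by identifier.

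Members and gene lists were chosen with earlier results of these data known. No cell type annotation was used; members followed the rule on counts alone. No doublet caller was run. Counts were summed over members per library and scaled to CPM; genes needed 50 UMIs, and a 0 count in 1 library was set to 3. Calls are rules of size, 1.5-fold between genotypes and 2-fold between stages. Ratios have exact binomial intervals, and list medians order-statistic intervals, both 95%. Python 3.11.15, numpy 2.4.6 and scipy 1.17.1 were used, and the ratio code was tested on simulated data.

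Named genes excluded the 7 genes of the rule, mitochondrial, hemoglobin and predicted or clone symbols, and also symbols used by more than 1 gene. Between genotypes they were the 12 highest and 12 lowest ratios with 200 UMIs and 30 CPM. They were 12 and 12 between stages, 8 and 8 along the late share and for the change between stages, and up to 4 per list. Dot1l, Tnp1, Tnp2, Prm1, Prm2, H1fnt, Crem and Ddx4 were added. A few of the genes these rules name are not reported here. Examples from lists between stages were chosen after their values were seen. Somatic barcodes had 10 or more UMIs and over 0.5% of Leydig, macrophage or mesenchymal markers and failed the Acrv1 conditions. That threshold was set after counts at several thresholds were seen, and Sertoli markers were left out after their protamine share was seen. Leaving out members with somatic marker UMIs, and the median over members for transition proteins and protamines, were also chosen after seeing the data. The 31-base words came from the last 400 bases of the longest transcript.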

Additional observations from a re-analysis of the deposited data

Results flagged for a closer look

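In 4 of 154 named genes the log2 ratio of late to early round spermatids had opposite signs in the 2 libraries. Both counting intervals were clear of 0. The share of all genes doing so was not computed, and genes were in part named for a large change between stages. The sign is read against 0, while the median gene stood at -0.29 in control and -0.26 in cKO. Apopt1 in control lay near that median, and the Gmcl1 interval in cKO (-0.53 to -0.17) covered it. The difference was not tested, since each genotype has 1 library, and the form of this comparison was settled after values were seen. For Apopt1 the log2 ratio of late to early was -0.26 in control and 1.17 in cKO, 1.429 apart, and 52.4% of the words at its 3′ end are shared with other genes. Efhd2, an actin-linked calcium-binding protein gene, was at -0.84 and 0.43, 1.274 apart. Gmcl1 was at 0.31 and -0.35, which is -0.661 apart. Junb, a dissociation stress gene with 18 and 83 UMIs in control and 62 and 111 in cKO, was at 0.96 and -0.60, which is -1.559 apart, and -0.97 apart without barcodes that had 10 or more somatic marker UMIs.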

How the results depend on the processing

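No paired analysis was possible because each genotype has 1 library. Under other settings 37 gene counts stayed within 1.5 times and 9 did not, and 247 list medians stayed within their intervals and 13 did not. Short lists have wide intervals, so the 247 do not measure stability. They include p53 targets at 0.06 with members thinned, from 0.77, and dissociation stress at 0.01 with free RNA subtracted, from 0.76. Genes higher in cKO numbered 5144 with a minimum of 10 UMIs, 1472 with 200 and 1787 with members thinned to 8000 UMIs, and genes lower 1584 and 531 with those minimums. Genes lower than in early cells numbered 639 under median-of-ratios scaling, 2066 and 721 with minimums of 10 and 200 UMIs and 824 when thinned. Taking the late share against each library alone moved the list medians of transition proteins and protamines to -0.64, axoneme to -0.0013, outer tail structures to -0.24, X and Y spermatid genes to -0.40, meiotic genes to 0.17 and ribosomal proteins to 0.0123. It also reversed the cKO to control ratio of Il16 (0.905 to -0.18), Dyrk4 (0.64 to -0.39), Tuba8 (0.77 to -0.45), Fbxo39 (0.84 to -0.33) and Rbm31y (0.80 to -0.27). Median-of-ratios scaling, which shifts every ratio by the median of 0.11, gave histone removal 0.0199, axoneme -0.27, outer tail structures -0.21 and ribosomal proteins -0.14. Free RNA subtracted gave transition proteins and protamines 0.29, histone removal 0.017 and ribosomal proteins -0.13. Shares of members were 22.7% and 20.3% at 12000 UMIs or more, 10.6% and 9.62% for a late share of 0.35 to 0.75, and 18.0% and 15.3% with 6 Acrv1 UMIs. The cause of these shifts was not tested. Named genes had the reported sign in 1909 of 1981 values. By size, 1663 of these values stayed within the counting interval, 313 moved out of it and 5 were reversed.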
